A study of Mus musculus with 8 samples.

Results

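The genes of the cornified envelope and the skin barrier were followed through single-cell libraries of mouse dorsal skin. They were taken by symbol: 32 named genes, and every gene of the Lce (late cornified envelope) and Sprr (small proline-rich) families, which added 21 and 15 rows. This gave 68 of the 31053 genes in the files, and each of the 32 named symbols was found. In all deposited barcodes the 68 genes had 824990 UMIs (unique molecular identifiers, each of which stands for 1 captured transcript), from 152277 for Krtdap and 162410 for Cst6 down to 0 for Sprr3, Lce3a, Lce3b and Lce3f. Another 6 genes had between 1 and 9 UMIs, so that 10 of the 68 were barely measured or not measured.

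The skin came from 8 female BALB/c mice aged 14 to 16 weeks. In 4 of them PBMCsec had been injected below the skin, and in the other 4 a vehicle. PBMCsec is the secretome of irradiated human peripheral blood mononuclear cells, that is, what these cells release into their culture medium. Biopsies were digested to single cells, viable cells were sorted by their exclusion of the dye DAPI, and 1 library per mouse was made with the 3′ chemistry of 10x Genomics. The labels do not say which of the mice were wounded, at which time skin was taken, or which control solution was given, so libraries were compared by treatment alone.

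Keratinocytes (KCs) divide in the basal layer of the epidermis and differentiate as they move outwards. In the granular layer they make precursor proteins, which transglutaminases cross-link under the cell membrane into the cornified envelope, while filaggrin condenses keratin filaments and is later cut to small water-binding molecules. The dead cells are held together by corneodesmosomes until proteases cut these, and lipids made by a set of dedicated enzymes fill the spaces between the cells. Hair follicles open to the surface through the infundibulum, whose lining also cornifies.

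Most of the 68 genes lie close together. On chromosome 3 there were 42 of them between positions 92080271 and 93399442 (GRCm38), among them Lor, Ivl, Flg and all of the Lce and Sprr families, in the region known as the epidermal differentiation complex. Another 7 were on chromosome 7, where Krtdap, Sbsn and Dmkn are neighbours. To show what the members share in sequence, the 250 bases upstream of the start of each gene were searched in RefSeq promoters (GRCm38.p6), in which 60 of the 68 genes were found. The AP-1 motif, bound by Fos and Jun proteins, was searched as TGANTCA, which reads the same on both strands. It was present in 17 of the 60 promoters (28.3%), against 6.87% of 27025 promoters of all genes. The promoters with the motif were those of Lor, Ivl, Rptn, Flg, Flg2, Krtdap, Dmkn, Sbsn, Sprr1a, Sprr1b, Sprr2b, Sprr2d, Sprr2e, Sprr2f, Sprr2h, Sprr2i and Sprr2k. Of these 17 genes, 7 belong to the Sprr2 group of related neighbouring genes, and how alike their promoters are was not measured. No Lce promoter held the motif. TATAAA, the core of the TATA box, was searched on the coding strand and was present in 20 of 60 promoters (33.3%), against 8.12% of all promoters. A Grainyhead-like motif, searched on both strands as AACNGGTT, was present in 1 of 60, against 1.71% of all. A match is a description of the letters and not of a binding site, and no binding was measured here.

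The promoters of 5 members whose levels are described below show the difference between the families, with the AP-1 motif in capitals. They cover chr3:92083143-92083392 (Lor, minus strand), chr3:92485882-92486131 (Sprr1a, minus strand), chr3:92573736-92573985 (Ivl, minus strand), chr7:30787655-30787904 (Krtdap, plus strand) and chr3:92656927-92657176 (Lce1b, minus strand), and are written 5′ to 3′ up to the base before the RefSeq start.
Lor: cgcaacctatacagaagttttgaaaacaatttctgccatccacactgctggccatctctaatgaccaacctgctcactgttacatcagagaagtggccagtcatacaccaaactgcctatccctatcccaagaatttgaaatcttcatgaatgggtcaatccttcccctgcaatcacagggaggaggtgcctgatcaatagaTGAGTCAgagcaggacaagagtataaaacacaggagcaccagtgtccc
Sprr1a: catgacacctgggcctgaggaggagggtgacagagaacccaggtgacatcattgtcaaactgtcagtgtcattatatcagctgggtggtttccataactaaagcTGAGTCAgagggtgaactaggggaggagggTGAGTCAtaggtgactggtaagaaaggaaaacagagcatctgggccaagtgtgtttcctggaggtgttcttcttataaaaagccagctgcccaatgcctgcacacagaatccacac
Ivl: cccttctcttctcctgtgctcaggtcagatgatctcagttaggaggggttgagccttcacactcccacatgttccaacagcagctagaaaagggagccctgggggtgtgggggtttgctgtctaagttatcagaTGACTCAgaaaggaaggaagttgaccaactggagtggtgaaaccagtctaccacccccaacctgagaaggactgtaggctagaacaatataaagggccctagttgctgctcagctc
Krtdap: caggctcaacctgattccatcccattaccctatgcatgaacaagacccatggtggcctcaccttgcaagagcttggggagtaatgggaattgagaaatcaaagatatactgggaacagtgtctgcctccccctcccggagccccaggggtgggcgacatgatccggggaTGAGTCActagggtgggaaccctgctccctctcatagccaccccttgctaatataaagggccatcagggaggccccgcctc
Lce1b: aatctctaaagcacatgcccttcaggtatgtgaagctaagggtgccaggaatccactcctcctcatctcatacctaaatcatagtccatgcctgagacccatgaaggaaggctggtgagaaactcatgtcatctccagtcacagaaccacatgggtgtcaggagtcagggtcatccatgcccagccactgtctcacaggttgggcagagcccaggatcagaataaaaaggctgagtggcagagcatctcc
The motif begins at base -48 in Lor, at -81 in Krtdap, at -116 in Ivl and at -146 and again at -116 in Sprr1a, counted back from the RefSeq start. The Lce1b window holds neither TGANTCA nor TATAAA.

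The libraries held between 14753926 and 37880651 UMIs, and the cell filter of the study's methods (between 500 and 4000 genes, mitochondrial counts up to 5% and no more than 20000 UMIs) left 6150 of 26231 barcodes as cells. Of the barcode sequences, 78 occurred in more than 1 library, 4 of them among the cells that passed. The filter took the barrier genes unequally from library to library. Of their 824990 UMIs, 212895 (25.8%) lay in cells that passed. The share was 29.2%, 4.08%, 36.6% and 24.96% in PBMCsec libraries 1 to 4, and 3.40%, 3.56%, 52.5% and 44.1% in vehicle libraries 1 to 4. PBMCsec library 2 and vehicle libraries 1 and 2 thus stood apart, since in each of them less than 5% of the members' UMIs remained, although before the filter these libraries had the 3 highest shares of member UMIs (0.550%, 0.600% and 0.472% of all UMIs, against 0.275% to 0.407% in the other 5). Of all UMIs, the same 3 libraries kept 8.10% to 12.2%, and the other 5 kept 18.4% to 38.2%. Over all libraries together, both kinds of limit removed member UMIs. The 16900 barcodes over the mitochondrial limit held 243500 member UMIs at 5 to 20% mitochondrial counts and 27068 above that, and 4006 barcodes with over 4000 genes held 404258. These groups overlap, since only 2536 of the 4006 were within the mitochondrial limit. Which limit acted in which library was not read. A looser filter was therefore added after these values had been seen, with at least 500 genes, at most 20% mitochondrial counts and no upper limit. It left 18709 cells, which were clustered anew, and its values are given beside the main ones.

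**Figure D1:**
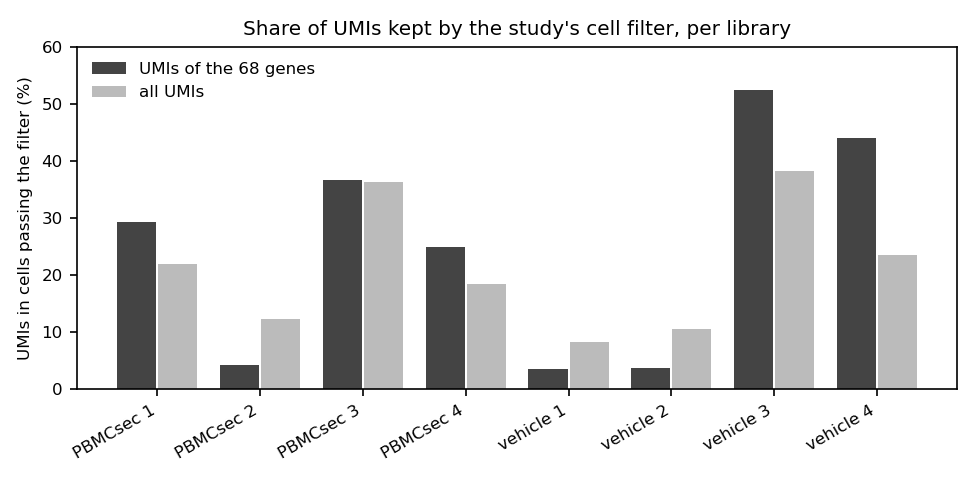
Share of UMIs that lie in cells passing the cell filter of the study's methods, in percent, per library, for the UMIs of the 68 genes (dark bars) and for all UMIs (light bars). In PBMCsec library 2 and vehicle libraries 1 and 2 the dark bars stand at 3.40% to 4.08%, and in the other 5 libraries at 24.96% to 52.5%.

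By role, the secreted suprabasal proteins Krtdap, Dmkn and Sbsn had the most UMIs (355611), followed by the genes of corneodesmosomes and desquamation (215563), the calcium-binding Calm4 and Calml3 (104067) and the lipid enzymes (37274). The Sprr family had 35232, the surface protein Ly6g6c 24256, the structural precursors Lor, Ivl, Cnfn and Rptn 17537, the filaggrin-processing enzymes Casp14 and Asprv1 14700, the filaggrin-type proteins Flg, Flg2 and Hrnr 13466, the transglutaminases 5332, and the 21 Lce genes together 1952. The filter also acted unequally between genes. Of the 58 genes with at least 10 UMIs, 13 kept over 50% of them, namely Sprr4, Rptn and 11 Lce genes. Less than 5% remained of Sprr2b, Sprr2d, Sprr2e, Sprr2f, Sprr2h, Lce1l and Lce3d.

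The genes also differed in how many cells carried their transcripts. Lor, the main protein of the envelope, had 12210 UMIs in 928 barcodes, but 2 barcodes held 50% of them, and 1 barcode of vehicle library 1 alone held 5398. Flg, the precursor of filaggrin, had 10439 UMIs, 50% of them in 3 barcodes. For Flg2 2 barcodes held 50%, for Hrnr 3, for Sprr1b 6, for Cnfn 5, and for each of Lce1a1, Lce1a2, Lce1b and Lce1c 1 barcode. In contrast, 50% of the UMIs of Krtdap were spread over 153 barcodes, of Dmkn over 572, of Calml3 over 638 and of Dsg1a over 658. In all, 23 of 58 genes had 50% of their UMIs in at most 3 barcodes, and 16 had them in over 100. Per-library levels of the first set therefore rest on a few cells.

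**Figure D2:**
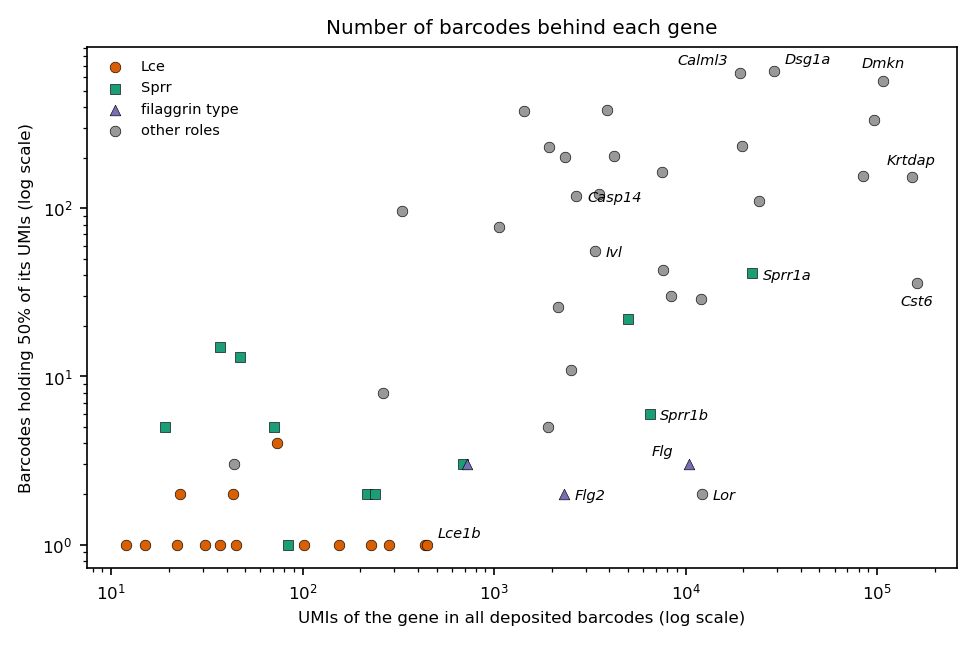
Number of barcodes that hold 50% of a gene's UMIs (vertical, log scale) against the gene's UMIs in all deposited barcodes (horizontal, log scale), for the 58 of 68 genes with at least 10 UMIs. Lor, Flg and Flg2 lie at 2 to 3 barcodes, and Dsg1a and Calml3, with 29067 and 19230 UMIs, lie at 658 and 638.

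The Lce family was the extreme case. Of its 1952 UMIs, 1388 came from PBMCsec library 4 and 438 from vehicle library 3, and the other 6 libraries had 11 to 30 each. Only 5 barcodes held 10 or more Lce UMIs, of which 2 passed the filter. In these 5 barcodes the 68 genes made up 26.4% of all UMIs, Lor alone stood at 70468 CPM (a gene's UMIs divided by all UMIs of the cells and put on one common scale for all libraries), and the median mitochondrial share was 1.48%. For comparison, 446 barcodes held 10 or more Sprr UMIs (119 passed the filter) and 45 held 10 or more UMIs of Flg, Flg2 and Hrnr (11 passed). No Lce gene passed the filter on low counts in the test by treatment of all 8 libraries.

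Reads of near-identical copies limit some members. Over the last 300 bases of the transcripts, which 3′ libraries read, Sprr2a1 and Sprr2a2 shared all of their 31-base words with each other, and Sprr2a3 shared 82.0% with Sprr2a2. Sbsn shared 76.7% with the overlapping Tmem147os, Sprr2b 39.3% with Sprr2a2 and Lce3d 46.3% with Lce3c. In all, 15 of the 68 genes shared over 20% with another gene, and counts can be split or lost between such genes.

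Cells that passed the filter formed 36 clusters, and 12 of them were epithelial: a basal-like cluster, an activated-like one, 2 suprabasal-like ones, 2 infundibulum-like and upper follicle-like ones, a cycling one, and 5 of deeper follicle layers. The 68 genes took no part in the clustering or in the naming. No cluster was named granular. The suprabasal-like clusters were led by Krt1 and Krt10, and 1 of them also by Krt16 and Grhl3. The members' levels below are means over the libraries that had at least 5 cells of a cluster, as CPM in the summed cells, with the SD over these libraries. Since each cluster was set apart by its expression, the orders are descriptions with no test. UMIs of a 3′ library do not grow with transcript length.

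A cluster of 96 cells with Krt79, Defb6 and Krt17 as markers, infundibulum-like, had the most barrier transcripts: the 68 genes made up 11.9 ± 3.41% of its UMIs (SD, n = 5 libraries, range 8.05% to 17.1%). The suprabasal-like clusters followed with 1.84 ± 0.876% (n = 6) and 1.71 ± 0.805% (n = 4), and every other epithelial cluster lay between 0.0266% and 0.613%. The cluster held 6 markers of the infundibulum but also 8 of the granular layer, so that the cells are called infundibulum-like only by the genes that lead it. Of the 49 genes with enough UMIs to be ordered, 41 were highest there, 6 in a suprabasal-like cluster, Tgm5 in a bulge-like and outer root sheath-like cluster and Tgm3 in the activated-like cluster.

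Among structural precursors, Lor stood at 2511 ± 2485 CPM in the infundibulum-like cluster, with 7.28 to 5575 CPM over its libraries, and next at 13.5 ± 14.4 CPM in a suprabasal-like cluster. It was higher in the first in 5 of 5 libraries that had both, and in the lowest of the 5 it was at 7.28 CPM. Ivl, which is laid down early in the envelope, stood at 340.1 ± 151 CPM and next at 116 ± 121 CPM in the inner root sheath-like cluster (higher in 5 of 5). Cnfn, a small envelope protein, stood at 369 ± 232 CPM and next at 2.80 ± 2.91 CPM. Lce1b stood at 499.97 ± 1063 CPM, all of it in 2 of 5 libraries.

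Within the Sprr family, Sprr1a was at 6423 ± 4807 CPM in the infundibulum-like cluster and next at 1173 ± 941 CPM in the suprabasal-like cluster with Krt16 (higher in 4 of 4 libraries). Sprr1b had its highest level in that suprabasal-like cluster, at 126 ± 154 CPM, and did not differ beyond its spread from the other suprabasal-like cluster, at 119.8 ± 130.4 CPM. Sprr2a3 was highest in the suprabasal-like cluster led by Krt1 and Mt4, at 280.1 ± 367 CPM, with 65.7 ± 94.7 CPM in the infundibulum-like cluster. The 3 genes thus had different leading clusters, but for Sprr1b and Sprr2a3 the SD was above the mean.

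Flg stood at 2655 ± 3831 CPM in the infundibulum-like cluster, with 50.9 to 9002 CPM over 5 libraries, and at no more than 3.18 CPM elsewhere. Flg2 and Hrnr, close relatives of Flg, stood at 883 ± 1074 CPM and 96.2 ± 139 CPM there, and at under 1 CPM in the next cluster. Asprv1, a protease that trims filaggrin, was at 2076 ± 1708 CPM and next at 527 ± 222 CPM. Casp14, the caspase of cornifying cells, was at 273 ± 259 CPM and next at 66.6 ± 28.0 CPM, in 5 of 5 libraries lower. The transglutaminases differed from each other. Tgm1 was highest in the infundibulum-like cluster at 73.9 ± 72.8 CPM, Tgm3 in the activated-like one at 60.8 ± 25.7 CPM and Tgm5 in a bulge-like one at 87.7 ± 71.3 CPM, next to 67.2 ± 19.9 CPM in the infundibulum-like cluster, a difference within the SD.

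The secreted suprabasal proteins were spread more evenly. Krtdap stood at 7050.3 ± 1719 CPM in the infundibulum-like cluster and at 6787 ± 3489 CPM in a suprabasal-like one, and Dmkn at 3358 ± 1025 CPM and 2986 ± 1359 CPM, both differences within the SD. Sbsn stood at 6939 ± 1249 CPM and next at 2834 ± 468 CPM in a companion layer-like cluster (higher in 5 of 5 libraries). Calm4, a calmodulin-like protein of the epidermis, did not differ beyond its spread between the suprabasal-like cluster (4034 ± 1840.5 CPM) and the infundibulum-like one (3971 ± 2479 CPM), while Calml3 was at 869 ± 119 CPM in the latter, 472 ± 208 CPM in a bulge-like cluster and 99.5 ± 206 CPM in the suprabasal-like one.

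Cst6, which encodes the protease inhibitor cystatin E/M, had the highest level of any member. It stood at 68868 ± 28551 CPM in the infundibulum-like cluster (35538 to 112868 over 5 libraries), and next at 913 ± 789.5 CPM in a companion layer-like cluster, and 94.9% of its UMIs in epithelial clusters were in the former. Klk7 and Klk5, the kallikreins that cut corneodesmosomes, stood at 1920.2 ± 1322 CPM and 308 ± 149 CPM there, as did their inhibitor Spink5 at 1093 ± 536 CPM and the corneodesmosome protein Cdsn at 669 ± 484 CPM, each higher than in the next cluster in every library that had both (4 or 5). Dsg1a, the desmosomal cadherin of upper layers, was at 829 ± 191 CPM in the infundibulum-like and 768 ± 159.9 CPM in the suprabasal-like cluster, a difference within the SD. Among lipid genes, the lipoxygenase Alox12e was at 950.1 ± 483 CPM and next at 529 ± 203 CPM in the other infundibulum-like and upper follicle-like cluster, Elovl4, which elongates very long fatty acids, at 392 ± 144 CPM and 257 ± 105 CPM, and the ceramidase Acer1 at 176 ± 66.8 CPM in the suprabasal-like cluster and 161 ± 16.6 CPM in the infundibulum-like one. The surface protein Ly6g6c was at 3245 ± 712 CPM and next at 773 ± 523 CPM.

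**Figure D3:**
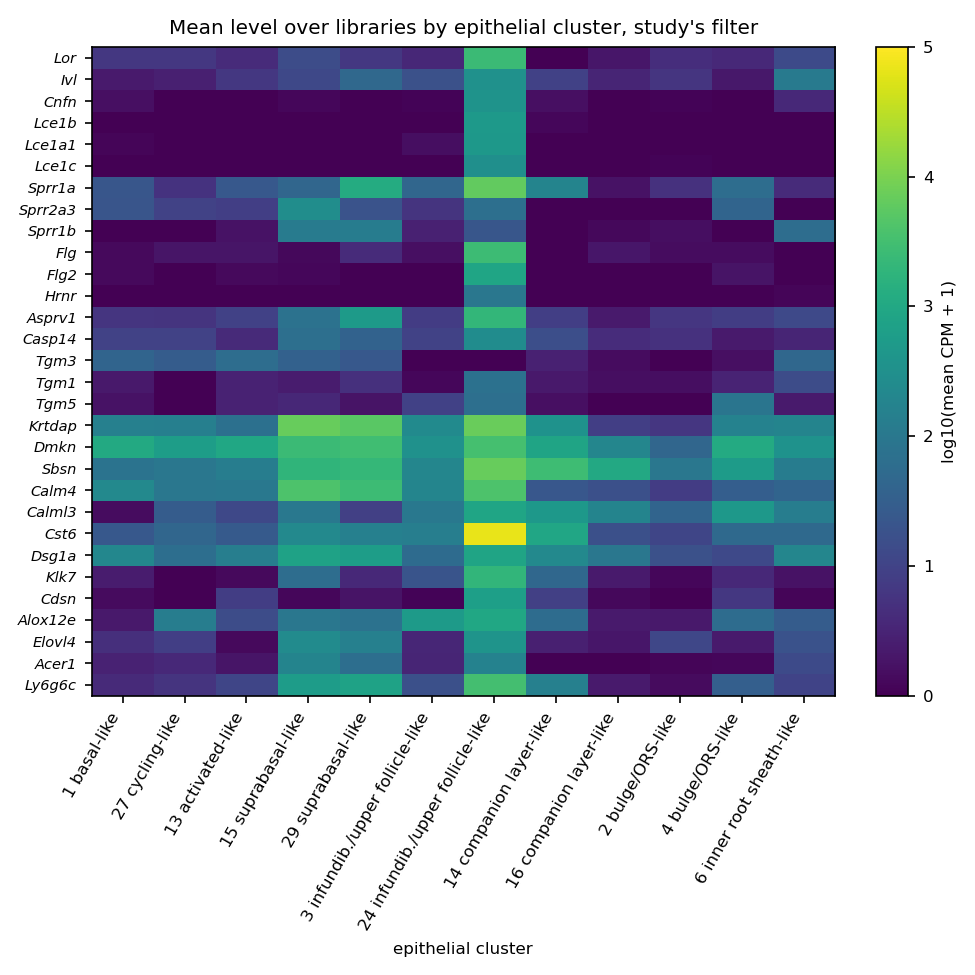
Mean level over libraries, as the log10 of mean CPM + 1 (colour), of 30 members (rows, ordered by role) in the 12 epithelial clusters of cells that passed the filter (columns). The infundibulum-like cluster 24 is the brightest column for most rows, with Cst6 at 68868 CPM, and Krtdap, Dmkn, Sbsn and Calm4 are bright in the suprabasal-like clusters 15 and 29 too.

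Under the looser filter the order was different. The suprabasal-like cluster then held 958 cells from all 8 libraries, and 40 of 56 genes were highest in it. In the infundibulum-like cluster (316 cells, 8 libraries) 8 were highest, namely Cst6, Sprr1a, Alox12e, Ly6g6c, Klk7, Ivl, Rptn and Sprr4. Lor stood at 747 ± 1109 CPM in the suprabasal-like cluster and at 5.92 ± 4.33 CPM in the infundibulum-like one, Flg at 645 ± 573 CPM and 30.4 ± 78.6 CPM, and Lce1b at 26.5 ± 70.3 CPM and 0. Of the 5 barcodes rich in Lce UMIs, 4 lay in the suprabasal-like cluster of the looser filter and none in the infundibulum-like one, while the 2 that had passed the stricter filter had been placed in the infundibulum-like cluster there. The place of Lor, Flg and the Lce genes among the subtypes thus depended on the cell filter and on the clustering that went with it. Since the infundibulum-like cluster of the stricter filter also held markers of the granular layer, it does not place these genes in the infundibulum.

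Cst6, Alox12e and Sprr1a were highest in an infundibulum-like cluster under both filters. Cst6 stood at 38322 ± 9786 CPM in the infundibulum-like cluster of the looser filter, with 25284 to 52885 CPM over 8 libraries, and at 2105 ± 913 CPM in the suprabasal-like one, higher in 8 of 8 libraries. Alox12e stood at 2046 ± 486 CPM and next at 662 ± 275 CPM in an upper follicle-like cluster (8 of 8). Sprr1a stood at 2149 ± 857 CPM and at 729 ± 523 CPM in the suprabasal-like cluster (7 of 8), whereas Sprr1b stood at 445 ± 810.1 CPM in the suprabasal-like cluster and at 4.67 ± 7.84 CPM in the basal-like one, the next (8 of 8). Krtdap stood at 8562 ± 2139.9 CPM against 2147 ± 1127 CPM, Calm4 at 4622 ± 1152 CPM against 1007 ± 388 CPM, Dmkn at 3249 ± 692 CPM against 1617 ± 445 CPM in a bulge-like cluster, and Casp14 at 124 ± 42.9 CPM against 31.3 ± 5.89 CPM, each higher in the suprabasal-like cluster in 8 of 8 libraries. Tgm5 and Calml3 were highest in a bulge-like and outer root sheath-like cluster, at 181 ± 89.3 CPM and 868 ± 253 CPM, Tgm1, Cers3 and Dsc1 in the inner root sheath-like cluster, at 38.8 ± 19.3 CPM, 32.2 ± 7.77 CPM and 137 ± 82.8 CPM, and Acer1 in a small sebocyte-like cluster, at 249.1 ± 87.1 CPM, next to 185 ± 39.7 CPM in the suprabasal-like one.

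Split more finely (resolution 2), the suprabasal-like cells of the looser filter fell almost entirely into 3 clusters. One of these, of 282 cells, was granular-like, with 8 granular markers (Nccrp1, Endou, Nipal4, Pnpla1, Them5, Hal, Cysrt1 and Psapl1), and 42 of the 56 genes were highest in it. In an infundibulum-like cluster 5 genes were highest at this resolution, in place of 8. The 68 genes made up 5.52 ± 1.81% of its UMIs, 2.34 ± 0.427% of those of a suprabasal-like cluster with Krt1 and Krt10 (348 cells) and 1.70 ± 0.438% of those of a cluster led by Serpinb2, Fosl1 and Krt16 that stayed unnamed (321 cells; SD, n = 8 libraries each). Lor, Flg and Cdsn were higher in the granular-like cluster than in the other 2. Lor stood at 2866 ± 4719 CPM there, at 10.4 ± 5.14 CPM in the suprabasal-like cluster and at 10.1 ± 4.86 CPM in the unnamed one, Flg at 2400.0 ± 2284 CPM, 3.66 ± 6.52 CPM and 4.67 ± 10.1 CPM, and Cdsn at 356 ± 263 CPM, 0.463 ± 0.913 CPM and 1.22 ± 1.42 CPM. Krtdap and Dsg1a were high in all 3, with Krtdap at 11944 ± 4312 CPM, 8887 ± 1759.8 CPM and 5394 ± 1744 CPM and Dsg1a at 889 ± 303 CPM, 1031 ± 192 CPM and 728 ± 110.4 CPM.

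**Figure D4:**
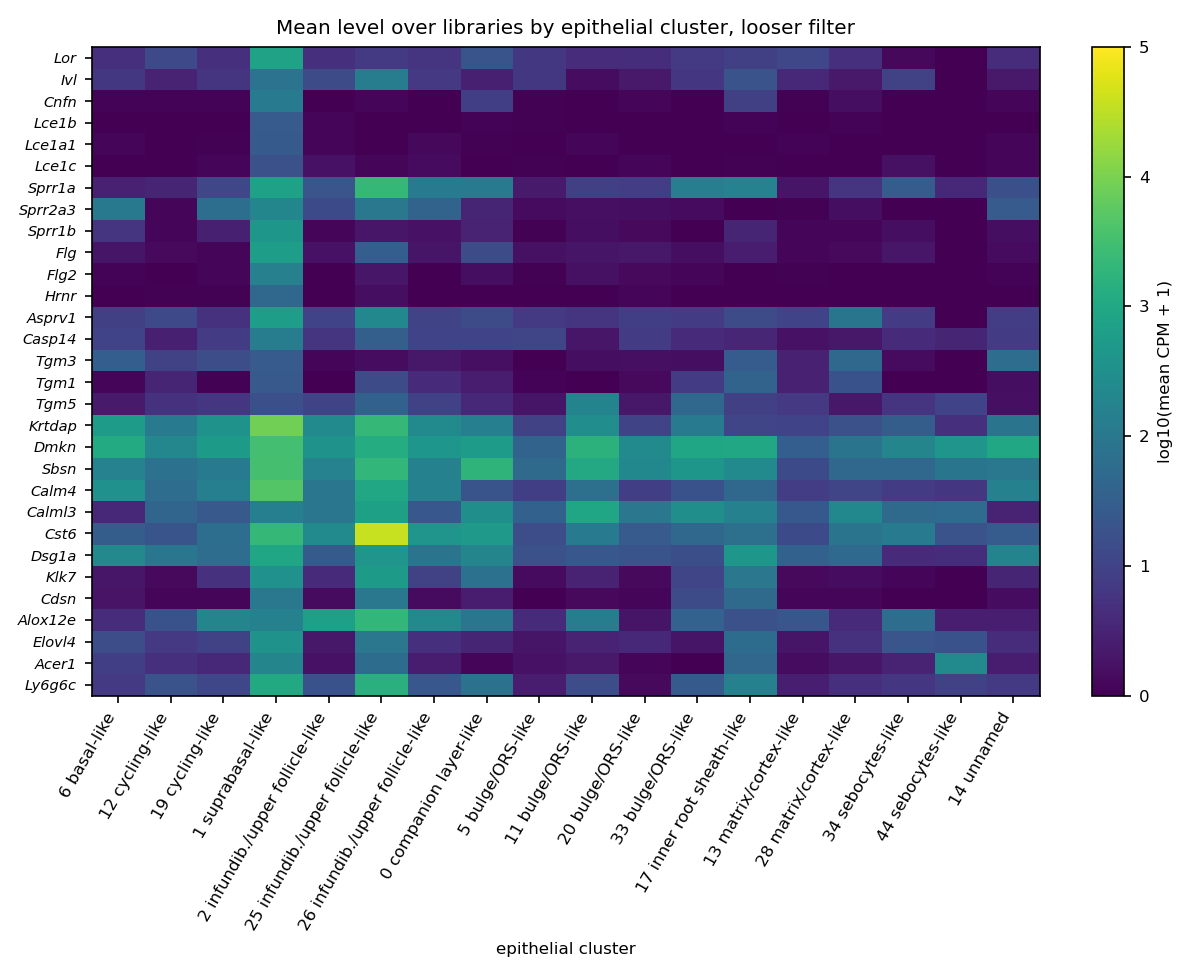
Mean level over libraries, as the log10 of mean CPM + 1 (colour), of the same 30 members (rows) in the 18 epithelial clusters of the looser filter (columns). The suprabasal-like cluster 1 is the brightest column for Lor (747 CPM), Flg (645 CPM) and Krtdap (8562 CPM), and the infundibulum-like cluster 25 for Cst6 (38322 CPM) and Alox12e (2046 CPM).

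Outside the epithelium the members together made up a small share of the UMIs, with a higher summed share in neutrophils. They made up 0.0150% of the UMIs of 3528 other cells (3655 UMIs; 494 of these cells were in clusters left unnamed, and in the named ones alone the share was 0.0143%), against 0.813% of those of 2622 epithelial cells. Sbsn (764 UMIs), Cst6 (631), Dmkn (482) and Krtdap (429), the most abundant members, led among the UMIs found there. Calm4 (285) and Asprv1 (248) followed. After thinning each cell to 1000 UMIs, 10.6% of the fibroblasts (median depth 9295 UMIs before thinning) and 15.5% of the T and B cells (3365 UMIs) had at least 1 UMI of any member, against 99.0% and 100% of the cells of the suprabasal-like clusters. Neutrophils (118 cells, median depth 1515 UMIs) had 37.5%. Summed, the members made up 0.116% of their UMIs, against 0.0128% in fibroblasts and 0.132% in the cycling epithelial cluster. Which members made up the 235 UMIs of the neutrophil value was not read. Each member named above had more UMIs than this outside the epithelium, so the sum can rest largely on a single gene. Asprv1 had 248 of the 3655 member UMIs outside the epithelium, against 2772 of 212895 in all cells that passed the filter. The neutrophil value thus does not show a raised level of the members as a set.

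Turning to treatment, the 18 to 370 KCs of each library (1318 in all) were summed per library. The class holds the basal-like, suprabasal-like, activated-like and cycling clusters and both infundibulum-like and upper follicle-like clusters. Enough counts for the test were found for 30 of the 68 genes, and for no Lce gene. No member was called (edgeR's quasi-likelihood test, Benjamini-Hochberg adjustment over all genes, smallest adjusted p = 0.9999), and neither was any other of the 8897 genes tested (0% called). The adjusted p is the same for nearly all genes and carries no order. DESeq2 and limma-voom called none either. At an unadjusted p under 0.05, 1 member was higher after PBMCsec (1.38% of all genes) and 2 were lower (0.731% of all genes). In direction alone, 14 were higher and 16 lower (51.8% and 48.2% of all genes), with a median log2 fold change (PBMCsec over vehicle) of -0.02, against 0.01 over all genes tested. In no member did the 4 PBMCsec libraries lie entirely above or below the 4 vehicle libraries (1.01% and 0.753% of all genes did). All tests were two-sided, and values are CPM scaled by TMM.

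Among structural precursors, 2 of 3 tested genes were higher and 1 lower. Lor stood at 436, 3.79, 4.62 and 147 CPM in PBMCsec libraries 1 to 4 and 9.86, 8.32, 326 and 71.4 CPM in vehicle libraries 1 to 4 (log2 fold change 0.40, SE 1.04, 95% interval -1.65 to 2.45). In both groups a pair of libraries was high and a pair was under 10 CPM. Of the 2249 Lor UMIs, 33.9% were in 1 cell of PBMCsec library 1. Ivl stood at 22.2, 26.5, 25.2 and 39.1 CPM after PBMCsec and 14.8, 11.6, 27.6 and 67.7 CPM after vehicle (log2 fold change -0.33, SE 0.42, 95% interval -1.14 to 0.49), with both ends of the range among the vehicle libraries. Cnfn stood at 56.3, 0, 0.514 and 44.4 CPM after PBMCsec and 4.93, 0, 18.9 and 35.5 CPM after vehicle (log2 fold change 0.52, SE 0.89, 95% interval -1.23 to 2.27). Of the Lce family, Lce1b stood at 0, 0, 0 and 254 CPM after PBMCsec and 0, 0, 5.71 and 0 CPM after vehicle, Lce1a1 at 0, 0, 0 and 224 CPM after PBMCsec and 0, 0, 14.7 and 0.461 CPM after vehicle and Lce1c at 0, 0, 0 and 150.2 CPM after PBMCsec and 0, 0, 6.01 and 0 CPM after vehicle, and 95.2% of the Lce1b UMIs were in 1 cell of PBMCsec library 4.

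Of 15 Sprr genes 3 were tested. Sprr1a, which rises with stress and differentiation of KCs, stood at 1365, 383, 360.0 and 564 CPM in PBMCsec libraries 1 to 4 and 404, 54.9, 236 and 753 CPM in vehicle libraries 1 to 4 (log2 fold change 0.89, SE 0.58, 95% interval -0.25 to 2.02). Sprr1b stood at 34.7, 26.5, 0 and 42.4 CPM after PBMCsec and 0, 1.66, 10.2 and 9.21 CPM after vehicle (log2 fold change 1.60, SE 0.89, 95% interval -0.14 to 3.34), the largest value upwards among the members, from 186 UMIs in 37 cells. Sprr2a3 stood at 67.1, 91.0, 21.3 and 23.6 CPM after PBMCsec and 242, 8.32, 28.2 and 27.6 CPM after vehicle (log2 fold change -0.25, SE 0.78, 95% interval -1.78 to 1.28), where vehicle library 1, with 18 KCs, was the highest of all. In each of the 3 genes the libraries of the groups overlapped.

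Of the filaggrin-type genes 2 were tested, and both had a log2 fold change below 0. Flg stood at 42.7, 0, 15.1 and 5.39 CPM in PBMCsec libraries 1 to 4 and 0, 0, 521 and 256 CPM in vehicle libraries 1 to 4 (log2 fold change -3.49, SE 1.07, 95% interval -5.58 to -1.40, unadjusted p = 0.00563 with edgeR). The values of vehicle libraries 3 and 4 were above all others, but vehicle libraries 1 and 2, with 18 and 44 KCs, had no Flg UMI, so the groups overlapped. Of the 2433 Flg UMIs, 1197 were in 1 cell of vehicle library 3. Flg2 stood at 131, 0, 0.257 and 40.4 CPM after PBMCsec and 4.93, 0, 146 and 6.45 CPM after vehicle (log2 fold change -0.07, SE 1.12, 95% interval -2.27 to 2.12), with the highest value in each group above 100 CPM and the others at 40.4 CPM or less, and Hrnr, not tested, at 14.8, 0, 0 and 0.673 CPM after PBMCsec and 0, 0, 18.0 and 0 CPM after vehicle. Of the enzymes that process filaggrin, Casp14 stood at 11.9, 11.4, 24.6 and 32.3 CPM after PBMCsec and 29.6, 15.0, 44.1 and 69.1 CPM after vehicle (log2 fold change -0.9997, SE 0.41, 95% interval -1.79 to -0.20, unadjusted p = 0.0273 with edgeR). Asprv1 stood at 464, 79.6, 44.9 and 191 CPM after PBMCsec and 54.2, 6.65, 158 and 272 CPM after vehicle (log2 fold change 0.59, SE 0.74, 95% interval -0.86 to 2.03), so that the pair had opposite signs. Of the transglutaminases, which form the cross-links, Tgm3 stood at 23.9, 34.1, 22.9 and 29.0 CPM after PBMCsec and 29.6, 43.3, 20.7 and 32.7 CPM after vehicle (log2 fold change -0.22, SE 0.27, 95% interval -0.76 to 0.32), Tgm5 at 8.53, 3.79, 5.39 and 13.5 CPM after PBMCsec and 0, 3.33, 8.71 and 7.83 CPM after vehicle (log2 fold change 0.21, SE 0.44, 95% interval -0.65 to 1.08) and Tgm1, not tested, at 21.6, 3.79, 1.03 and 4.04 CPM after PBMCsec and 9.86, 1.66, 4.81 and 5.07 CPM after vehicle.

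The 3 secreted suprabasal proteins had log2 fold changes between -0.12 and -0.01. Krtdap stood at 1027, 1842, 1463 and 2332 CPM in PBMCsec libraries 1 to 4 and 1479, 199.6, 1993 and 3540.2 CPM in vehicle libraries 1 to 4 (log2 fold change -0.12, SE 0.54, 95% interval -1.17 to 0.93). Dmkn stood at 862, 1266, 1192 and 1684 CPM after PBMCsec and 729.5, 642, 1535 and 2184 CPM after vehicle (log2 fold change -0.03, SE 0.34, 95% interval -0.70 to 0.63). Sbsn stood at 821, 891, 838 and 1168 CPM after PBMCsec and 1020.3, 206, 1075 and 1431 CPM after vehicle (log2 fold change -0.01, SE 0.40, 95% interval -0.78 to 0.77). In all 3 genes vehicle library 2 was the lowest of the 8 libraries and vehicle library 4 the highest. Calm4 had the same lowest and highest library, with 385, 913, 856 and 1585 CPM after PBMCsec and 680.2, 113, 1407 and 2026 CPM after vehicle (log2 fold change -0.19, SE 0.59, 95% interval -1.34 to 0.97). Calml3 stood at 103, 243, 102 and 118 CPM after PBMCsec and 123, 71.5, 72.7 and 65.9 CPM after vehicle (log2 fold change 0.77, SE 0.31, 95% interval 0.17 to 1.37, unadjusted p = 0.0246 with edgeR), where 3 of 4 vehicle libraries lay below all PBMCsec libraries and vehicle library 1 lay among them.

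Of the 7 genes of corneodesmosomes and desquamation, 4 were higher and 3 lower. Cst6 stood at 10365, 5378, 4032 and 7949 CPM in PBMCsec libraries 1 to 4 and 7901, 1129.6, 2142 and 4890.4 CPM in vehicle libraries 1 to 4 (log2 fold change 0.79, SE 0.46, 95% interval -0.11 to 1.69). Dsg1a stood at 199, 171, 358 and 273 CPM after PBMCsec and 291, 188, 426 and 416 CPM after vehicle (log2 fold change -0.40, SE 0.29, 95% interval -0.96 to 0.17), Klk7 at 331, 186, 48.5 and 143 CPM after PBMCsec and 177, 18.3, 70.3 and 222 CPM after vehicle (log2 fold change 0.55, SE 0.60, 95% interval -0.63 to 1.73) and Cdsn at 115, 219.8, 4.88 and 29.6 CPM after PBMCsec and 19.7, 0, 57.1 and 64.0 CPM after vehicle (log2 fold change 0.89, SE 0.87, 95% interval -0.82 to 2.60). The libraries of the groups overlapped in each of them. The infundibulum-like cluster, in which Cst6, Klk7 and Cdsn were highest, had 2 cells in PBMCsec library 2 and 3 each in vehicle libraries 1 and 2. The levels of these genes in these libraries thus rest largely on few cells. Of 5 tested lipid genes, 2 were higher and 3 lower, between -0.52 and 0.57 on the log2 scale. Alox12e stood at 310.05, 508, 289 and 218 CPM after PBMCsec and 291, 301, 130.3 and 176 CPM after vehicle (log2 fold change 0.57, SE 0.31, 95% interval -0.03 to 1.18), Elovl4 at 38.1, 68.2, 70.6 and 77.4 CPM after PBMCsec and 44.4, 0, 91.3 and 143 CPM after vehicle (log2 fold change -0.30, SE 0.59, 95% interval -1.46 to 0.87) and Acer1 at 17.1, 19.0, 50.3 and 56.6 CPM after PBMCsec and 34.5, 1.66, 60.4 and 87.5 CPM after vehicle (log2 fold change -0.42, SE 0.56, 95% interval -1.52 to 0.68). Ly6g6c stood at 300.4, 648, 312 and 482 CPM after PBMCsec and 453, 129.8, 298 and 663 CPM after vehicle (log2 fold change 0.16, SE 0.39, 95% interval -0.61 to 0.93).

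With the libraries numbered 3 and 4 alone, which kept 24.96% to 52.5% of the member UMIs, 38 members were tested. This split leaves out vehicle libraries 1 and 2, which had no Flg UMI in KCs. It also leaves out PBMCsec library 1, which had kept 29.2% of its member UMIs and had the highest Flg level after PBMCsec. Flg was called lower after PBMCsec (log2 fold change -5.10, SE 0.48, adjusted p = 0.0132 with edgeR's quasi-likelihood test). It was the only gene called of all 10020 tested (0.00998%), from 4 libraries and mostly from a few cells as above. In these 4 libraries 6 Lce genes passed the filter on low counts and none was called, with Lce1b at a log2 fold change of 5.19 (SE 1.83, adjusted p = 0.9999), from the single cell of PBMCsec library 4 named above for the most part. With the libraries numbered 1 and 2 alone none of 20 tested members was called, while 5 of 5472 genes were (0.0914%), all higher after PBMCsec.

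With the looser filter no cluster was named activated-like. An unnamed cluster of 494 cells, with Serpinb2, Fosl1 and Atf3 among its leading genes, was left out of KCs. The KCs of this filter thus differ in make-up from those above. There were 218 to 839 of them in each library, and 35 members were tested. None was called by edgeR's quasi-likelihood test (0% of 11167 genes, smallest adjusted p of a member 0.408) or by DESeq2, which called 19 other genes. Of the members, 26 were lower and 9 higher after PBMCsec, while among all genes 52.4% were lower and 47.6% were higher after it. At an unadjusted p under 0.05, 9 members were lower (4.78% of all genes) and Sprr1b was higher (4.24% of all genes). The 9 were Casp14, Klk5, Dsg1a, Spink5, Ivl, Hrnr, Elovl4, Acer1 and Cdsn. The median log2 fold change was -0.31 over the members and -0.01 over all genes tested.

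Dsg1a was the 1 member of 35 tested in which the libraries did not overlap, a share near the background (2.63% of all genes were lower without overlap and 1.83% higher). It stood at 308, 272, 386 and 360.0 CPM in PBMCsec libraries 1 to 4 and 530.0, 418, 453 and 432 CPM in vehicle libraries 1 to 4 (log2 fold change -0.47, SE 0.15, unadjusted p = 0.00822). Its 17431 UMIs came from 2017 cells, and no cell held more than 0.912% of them. Casp14 stood at 32.3, 29.9, 45.8 and 40.7 CPM after PBMCsec and 71.3, 76.1, 42.6 and 60.9 CPM after vehicle (log2 fold change -0.75, SE 0.20, unadjusted p = 0.00298), where vehicle library 3 lay among the PBMCsec libraries. Klk5 stood at 19.6, 19.5, 35.4 and 36.6 CPM after PBMCsec and 82.1, 73.2, 30.1 and 55.3 CPM after vehicle (log2 fold change -1.11, SE 0.31, unadjusted p = 0.00391), again with vehicle library 3 among the PBMCsec libraries. Spink5 stood at 101, 109.8, 155 and 87.5 CPM after PBMCsec and 203, 175, 139.8 and 142 CPM after vehicle (log2 fold change -0.54, SE 0.19, unadjusted p = 0.0152) and Ivl at 31.03, 27.4, 35.8 and 35.1 CPM after PBMCsec and 57.1, 51.1, 28.0 and 57.5 CPM after vehicle (log2 fold change -0.57, SE 0.21, unadjusted p = 0.0197).

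All 3 filaggrin-type genes had lower means after PBMCsec under the looser filter. Flg stood at 14.6, 11.0, 338 and 73.8 CPM after PBMCsec and 575, 217, 446 and 163 CPM after vehicle (log2 fold change -1.67, SE 0.86, unadjusted p = 0.0772), Flg2 at 32.1, 0, 39.6 and 14.4 CPM after PBMCsec and 217, 21.2, 93.0 and 6.74 CPM after vehicle (log2 fold change -1.94, SE 0.97, unadjusted p = 0.0687) and Hrnr at 4.04, 0, 14.6 and 2.87 CPM after PBMCsec and 83.8, 19.0, 14.6 and 1.68 CPM after vehicle (log2 fold change -2.36, SE 0.94, unadjusted p = 0.028). Lor stood at 109, 2.44, 196 and 111 CPM after PBMCsec and 1325, 138, 241 and 79.6 CPM after vehicle (log2 fold change -2.09, SE 0.98, unadjusted p = 0.055), and 48.9% of its UMIs were in 1 cell of vehicle library 1. Read without pairing, the groups overlapped in all 4 genes. Within pairs of the same number, Flg was lower in 4 of 4, and Flg2, Hrnr and Lor in 3 of 4 (13.3% of all genes were lower in every pair). All 4 tested Sprr genes had higher means: Sprr1b stood at 114, 705, 21.7 and 61.8 CPM after PBMCsec and 45.3, 75.9, 9.33 and 82.7 CPM after vehicle (log2 fold change 2.08, SE 0.91, unadjusted p = 0.0424), with 21.8% of its UMIs in 1 cell of PBMCsec library 2, Sprr2a3 at 247, 291, 40.6 and 32.6 CPM after PBMCsec and 95.1, 88.1, 21.0 and 28.6 CPM after vehicle (log2 fold change 1.39, SE 0.70, unadjusted p = 0.0693), Sprr1a at 596, 675, 277 and 314 CPM after PBMCsec and 156, 405, 186 and 575 CPM after vehicle (log2 fold change 0.49, SE 0.41, unadjusted p = 0.25) and Sprr2h at 10.02, 79.5, 0.470 and 7.02 CPM after PBMCsec and 1.42, 8.76, 0.704 and 19.2 CPM after vehicle (log2 fold change 1.68, SE 1.13, unadjusted p = 0.164). PBMCsec libraries 1 and 2 were the highest of all in Sprr1a, Sprr1b and Sprr2a3, and PBMCsec libraries 3 and 4 were within the vehicle range. Within pairs of the same number, Sprr2a3 was higher in 4 of 4, Sprr1a and Sprr1b in 3 of 4 and Sprr2h in 2 of 4 (12.2% of all genes were higher in every pair).

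Libraries of the same number deviated together in KCs of this filter and were therefore also compared as pairs, with the number as a block in edgeR's quasi-likelihood test. No member was called, while 6 of all genes were (0.0537%). At an unadjusted p under 0.05 there were 12 lower members (9.45% of all genes) and 3 higher ones (8.64% of all genes), in place of 9 and 1 without the block. Flg was lower after PBMCsec in 4 of 4 pairs (log2 fold change -2.56, SE 0.77, adjusted p = 0.165 with the block), and so were Dsg1a (log2 fold change -0.47, SE 0.12, adjusted p = 0.128), Calm4, Elovl4 and Abca12. Sprr2a3 was higher in 4 of 4 pairs (log2 fold change 1.13, SE 0.21, adjusted p = 0.0916, the smallest of any member), and so was Tgm1 (log2 fold change 0.43, SE 0.17, adjusted p = 0.242). Thus 5 of 35 members were lower and 2 higher in every pair, against 13.3% and 12.2% of all genes tested, a share of the members near the background in the lower direction and below it in the higher one.

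**Figure D5:**
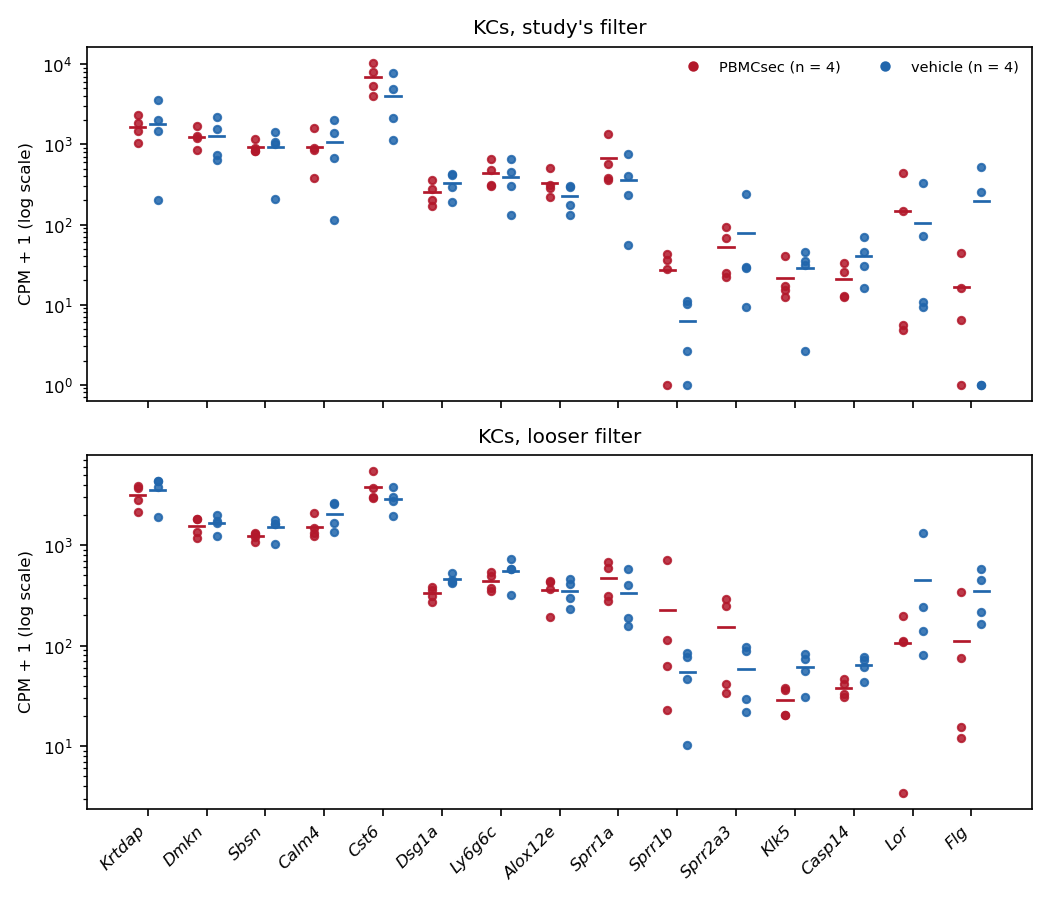
Level of 15 members per library in KCs, as CPM + 1 on a log scale, with the cell filter of the study's methods (upper) and the looser filter (lower). Each point is 1 library, bars are the means of 4 libraries per group, PBMCsec red and vehicle blue. The groups overlap for every gene shown except Dsg1a under the looser filter, where PBMCsec lies at 272 to 386 CPM and vehicle at 418 to 530 CPM.

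The share of differentiating cells among KCs was compared too. With the stricter filter this class holds the suprabasal-like clusters and the activated-like one, and it leaves out the infundibulum-like cluster of 96 cells in which most members were highest. The members made up only 0.162 ± 0.0408% of the UMIs of the activated-like cluster, against 0.193 ± 0.0844% in the basal-like one (SD, n = 6 libraries each), so that they made up less of the UMIs of the class (0.897% after PBMCsec and 0.890% after vehicle) than of those of all KCs. With the looser filter the class is the suprabasal-like cluster alone, which includes the granular-like cells. KCs of that filter also lack an activated-like cluster, as stated above. Both classes, KCs and differentiating KCs, thus hold different cells under the 2 filters. The share was 38.6%, 40.7%, 33.8% and 33.6% in PBMCsec libraries 1 to 4 and 22.2%, 31.8%, 38.4% and 44.3% in vehicle libraries 1 to 4, that is, 36.7 ± 3.57% against 34.2 ± 9.47% (SD, n = 4 each, exact permutation test, p = 0.657, where the smallest possible p is 0.0286). Under the looser filter it was 24.8 ± 2.73% against 27.2 ± 4.60% (SD, n = 4 each, exact permutation test, p = 0.343). The 68 genes together made up 1.45 ± 0.363% of the UMIs of KCs after PBMCsec and 1.17 ± 0.619% after vehicle, and under the looser filter 1.44 ± 0.240% and 1.58 ± 0.379% (SD, n = 4 each). The difference turned its sign with the filter and was within the spread between libraries each time.

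Within differentiating KCs of the stricter filter, that is, without the infundibulum-like cluster, 20 members could be tested in the 7 libraries with at least 10 such cells, and none was called by edgeR (0% of 6467 genes) or DESeq2. Of the 20, 15 were lower and 5 higher (50.3% and 49.7% of all genes), and 1 was higher at an unadjusted p under 0.05 (0.619% of all genes). Without a filter on low counts edgeR called Sprr2a3 (log2 fold change 1.96, SE 0.41, adjusted p = 0.0012) and Sprr1b (log2 fold change 1.90, SE 0.43, adjusted p = 0.00518) higher, of 38 members tested. Of all genes in that fit, 27 of 14273 were called (0.189%), 17 of them higher. The groups overlapped in both members. Sprr2a3 stood at 152, 221, 37.8 and 8.75 CPM after PBMCsec and 0, 8.38 and 46.4 CPM in vehicle libraries 2 to 4. Sprr1b stood at 85.2, 91.1, 0 and 103 CPM after PBMCsec and 4.31, 18.2 and 18.9 CPM in these vehicle libraries. Within the suprabasal-like cluster of the looser filter none of 35 was called by edgeR (0% of 8752 genes) or DESeq2, 24 were lower and 11 higher (51.5% and 48.5% of all genes), and at an unadjusted p under 0.05 there were 4 lower (2.90% of all genes) and 2 higher (2.38%). The 2 higher ones were Sprr2a3, at 493, 746, 68.5 and 60.3 CPM after PBMCsec and 139, 83.4, 24.8 and 37.9 CPM after vehicle (log2 fold change 2.27, SE 0.77, unadjusted p = 0.0125), and Sprr1b, at 319.6, 2611, 68.5 and 201 CPM after PBMCsec and 119, 215, 25.3 and 188 CPM after vehicle (log2 fold change 2.55, SE 0.96, unadjusted p = 0.0207). The 4 lower ones were Klk5, Casp14, Ivl and Hrnr. In Klk5 the values were 40.9, 45.5, 91.8 and 99.2 CPM after PBMCsec and 202, 198, 70.6 and 108 CPM after vehicle (log2 fold change -1.05, SE 0.37, unadjusted p = 0.0144).

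Since single cells weigh so much in summed counts, the share of differentiating cells with at least 1 UMI was also taken, after thinning each cell to 2000 UMIs (looser filter, 46 to 222 cells per library). For Lor it was 1.80, 0, 2.54 and 5.08% after PBMCsec and 7.14, 6, 4.95 and 5.22% after vehicle, and the groups overlapped between PBMCsec library 4 and vehicle library 3. In fibroblasts of the same libraries the share was 0.442% (median depth 8843 UMIs before thinning, against 13336 in the differentiating cells). In this random draw of UMIs 1 of 36 members was lower without overlap (Alox12b), and in a second draw 2 were (Lor and Cdsn), where 1.32% of 8785 genes were lower and 1.1% higher without overlap, so that none was so in both draws. Sprr1b was found in 14.4, 26.1, 4.06 and 16.9% after PBMCsec and 5.36, 6, 3.15 and 5.22% after vehicle of the cells, and the groups overlapped. This measure was chosen after the summed levels had been seen, and no test was run on it.

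Summed over all cells that passed the filter, 32 members were tested and none was called by edgeR (0% of 13182 genes) or DESeq2, with 20 lower and 12 higher (53.3% and 46.7% of all genes), and unadjusted p was under 0.05 for 1 lower member and for no higher one (0.569% and 1.97% of all genes). With the library number as a block in edgeR none was called either. Unadjusted p was then under 0.05 for 1 lower and 1 higher member, and for 130 lower and 393 higher genes of the 13182. In all deposited barcodes, with no filter, none of 36 was called by edgeR (0% of 15375 genes), and 3 members lower after PBMCsec, but no higher one, had an unadjusted p under 0.05 (0.826% and 1.87% of all genes).

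The other genes of cornification were read from the same fit of KCs, in lists that hold no member. Of 72 genes, 60 were tested, 20 were higher and 40 lower after PBMCsec (51.8% and 48.2% of all genes in this fit), and none was called by edgeR or DESeq2. At an unadjusted p under 0.05 there was 1 higher (1.38% of all genes) and none lower (0.731%). In the list of desmosomes and envelope scaffold, 9 of 10 were lower, with the largest change in Evpl, which encodes envoplakin (log2 fold change -0.30, SE 0.25). Among ceramide and lipid barrier genes, 9 of 14 were lower, led by Pnpla1 at -0.43 (SE 0.58). Proteases and inhibitors were split 6 to 6, and the largest change was in the kallikrein Klk6 (1.45, SE 0.94). Of the transcription factors that drive differentiation, 11 of 15 were lower, and the largest change was in Ehf (0.74, SE 0.40). Of 5 tight junction genes 4 were higher, led by Cldn4 (0.57, SE 0.47). All 4 tested suprabasal keratins were lower, led by Krt77 (-0.98, SE 0.58).

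With the looser filter 66 of these genes were tested, 50 were lower and 16 higher (52.4% and 47.6% of all genes in this fit), and none was called by edgeR. At an unadjusted p under 0.05, 10 were lower (4.78% of all genes) and 2 higher (4.24%). All 5 suprabasal keratins had lower means, 3 of them at an unadjusted p under 0.05, with the largest change in Krt2 (log2 fold change -1.35, SE 0.56). The regulator with the largest change was Gata3, at 272 ± 30.4 CPM after PBMCsec and 389 ± 43.6 CPM after vehicle (SD, n = 4 each; log2 fold change -0.51, SE 0.14, adjusted p = 0.408 with edgeR's quasi-likelihood test). Degs2, which makes phytoceramides, had the largest change among lipid genes (1.71, SE 0.47), and Klk6 again that among proteases (1.65, SE 0.92).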

How the data were processed

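The deposited files are matrices of raw UMI counts per gene and cell barcode, which the authors made with Cell Ranger against mm10 (version 3.0.2 per the file headers; annotation release not given in the sources used here). The cell filter kept barcodes between 500 and 4000 genes whose mitochondrial counts were up to 5% and whose UMIs were no more than 20000, and 3 noise genes were removed. Libraries were integrated and clustered with Seurat 5.3.0 (2000 variable features without the 68 genes, 30 dimensions, resolution 1) in R 4.3.3. Clusters were named from fixed markers, at least 3 of which had to be raised. Scrublet marked 18 cells (0.293%), too few to have worked, so its calls were not used, and removal of the 5% of cells with the highest scores in each library was an alternative. Scores were computed only for cells that passed the stricter filter. The looser filter, which has no upper limit on genes or UMIs, had no such check for barcodes that hold more than 1 cell.

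Counts were summed per library and cell class, for libraries with at least 10 cells, and tested with edgeR 4.0.16 (quasi-likelihood, TMM, filter on low counts) over all genes, with Benjamini-Hochberg adjustment and a threshold of 0.05. Intervals of fold changes are normal intervals from the SE. For edgeR the SE was computed back from the quasi-likelihood F, as the absolute log2 fold change divided by the square root of F. Such intervals can be narrower than the test. For Sprr2a3 in KCs of the looser filter the interval was 0.03 to 2.76, at an unadjusted p = 0.0693 with edgeR's quasi-likelihood test. DESeq2 1.42.0 and limma 3.58.1 were alternatives. The scripts were tested on simulated data. Other steps used Python 3.11.15, scipy 1.17.1 and scanpy 1.11.5. Each library is 1 mouse, and 0 other columns of per-sample values were left unused. Counting error alone does not cover the spread between cells.

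The members and gene lists were chosen with earlier results of these data known. Values per library were given, in each role, for up to 3 members with the highest mean level in KCs, for members whose groups did not overlap and for the 2 tested members with the largest change each way; of the other genes of cornification, the 1 with the largest change in each list was named. Further members were named after their values were seen.

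Labels number the libraries 1 to 4 in both groups without saying what a number shares. Deviations of same-numbered libraries from their group means correlated at 0.142, 0.0379, 0.154 and 0.410 in KCs, where the numbers were therefore not taken to pair them, and at 0.288 to 0.571 in all cells and 0.269 to 0.480 in KCs of the looser filter, where they were. Libraries of different numbers were not compared in this way, so these values do not show what a number shares.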

Additional observations from a re-analysis of the deposited data

Results flagged for a closer look

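In 6 of 118 groups of 4 libraries, 1 library stood apart from the other 3 by Dixon's test, and chance alone gives about 1 in 20. In KCs that passed the filter, Sprr2a3 stood at 242 CPM in vehicle library 1 against 8.32 to 28.2 CPM in the other vehicle libraries. Calml3 stood at 243 CPM in PBMCsec library 2 against 102 to 118 CPM in the other PBMCsec libraries, and at 123 CPM in vehicle library 1 against 65.9 to 72.7 CPM in the other vehicle libraries. Flg2 stood at 146 CPM in vehicle library 3 against 0 to 6.45 CPM. Under the looser filter, Sprr1b stood at 705 CPM in PBMCsec library 2 against 21.7 to 114 CPM, and Lor at 1325 CPM in vehicle library 1 against 79.6 to 241 CPM. Vehicle library 1 and PBMCsec library 2, which make up 5 of the 6, had 18 and 27 KCs that passed the filter and 218 and 221 KCs under the looser one.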

How the results depend on the processing

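The number of members called by treatment stayed at 0 in KCs, differentiating KCs and all cells with DESeq2, without any 1 library (0 to 0 in each), and with a replicate block, whose pairing changed no call of a member (0 members in every class and under both filters) but raised the genes called in KCs of the looser filter from 0 to 6. It was 1 in KCs with the libraries numbered 3 and 4 alone (0.00998% of all genes were called) and 2 in differentiating KCs with no filter on low counts (0.189%). The 1 was Flg, in a split that leaves out the vehicle libraries with no Flg UMI. The difference in the share of differentiating cells, 2.49 percentage points (PBMCsec minus vehicle), was 12.7 with the libraries numbered 1 and 2 alone and -7.67 with those numbered 3 and 4 alone, and ran from -1.50 to 5.87 without any 1 library. The difference in the summed member share of KC UMIs, 0.277 percentage points, ran from -0.0109 to 0.438. Under the looser filter, chosen after seeing the data, an infundibulum-like cluster was highest for 8 of 56 members in place of 41 of 49, and members made up 0.0268% of UMIs outside the epithelium in place of 0.0150%, where 2866 cells of unnamed clusters held 11801 of the 21222 member UMIs and the named cells alone stood at 0.0182% in place of 0.0143%. The cause was not tested in these cases. Cluster borders under the looser filter also moved a little between runs with other settings of the numerical libraries, and with them the values under that filter. Of 483 log2 fold changes of 25 named members in KCs over all settings, 396 kept the sign of the main value and 87 did not. Casp14, Cst6, Dsg1a and Flg kept theirs in every setting in which they were tested (19, 20, 20 and 18 settings), but without any 1 library they ran from -1.27 to -0.57, from 0.48 to 1.34, from -0.63 to -0.25 and from -4.40 to -2.45. For Cst6 the values of PBMCsec library 2 and vehicle libraries 1 and 2 rested largely on few cells under the stricter filter, as above. Lor ran from -1.05 to 2.02 without any 1 library. For 23 members the number of cells that carry them is the limit, since at most 3 barcodes held 50% of their UMIs. Lce genes were tested only with no filter on low counts and with the libraries numbered 3 and 4 alone, and none was called.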
